A study of Mus musculus with 4 samples.

Results

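The nuclear genes of respiratory complexes II, III, IV and V were examined in tibialis anterior (TA) muscle of exercised and control mice. Members were the protein-coding genes whose symbol begins with Sdh, Uqc, Cox or Atp5. Left out were 9 genes set apart as cytochrome oxidase isoform genes (Cox4i1, Cox4i2, Cox6a1, Cox6a2, Cox7a1, Cox7a2, Cox7a2l, Cox8a and Cox8b). This gave 60 of the 57180 listed genes, 8 for complex II, 14 for complex III, 19 for complex IV and 19 for complex V. By role they were 39 subunits, 19 assembly factors, the complex V inhibitor Atp5if1 and Cox5b-ps, a row with a pseudogene name that the table lists as protein coding.

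The exercise group had 4 weeks of treadmill running on 5 days/week, 45 min/day at 12 m/min, after 5 days of familiarization that started at 8 m/min for 30 min/day. The control group was age-matched and sedentary. Both groups were wild-type C57BL/6J mice, named as male in the methods, aged 3 weeks when training began and 8 weeks when muscle was taken. RNA-seq was run on 2 exercise and 2 control libraries, and the labels do not say whether each came from a separate animal. P-values therefore measure the spread between these libraries, which may be technical.

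Complex II, succinate dehydrogenase, oxidizes succinate in the citric acid cycle and passes the electrons to ubiquinone. Complex III hands them from ubiquinol to cytochrome c, complex IV (cytochrome c oxidase) hands them on to oxygen, and complex V (ATP synthase) uses the proton gradient to make ATP. Subunits are the parts of the finished complexes, whereas assembly factors insert heme, copper, flavin and iron-sulfur cofactors or hold incomplete intermediates and are not part of the finished enzyme.

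Values were TPM, in which reads are scaled by transcript length and to the same total in every library, so that the TPM of 1 gene also depends on all the others. The 50 highest genes took 50.5% and 45.8% of the total in exercise libraries, against 62.1% and 59.0% in control libraries. The summed TPM of 12 muscle fiber markers of the labelled tissue was 91283 and 79680 in exercise libraries, against 122831 and 134607 in control libraries, and their part in the results below was not tested. The adipocyte markers summed to 266 and 319 TPM in exercise libraries, against 369 and 748 TPM in control libraries, with Ucp1 at 0 in all 4. Endothelial, macrophage, fibro-adipogenic progenitor, Schwann cell and red blood cell marker sums lay between 15.1 and 699 TPM in every library. In bulk muscle, fewer cells of a type and less RNA per cell cannot be told apart. Xist, which is transcribed from the inactive X chromosome of females, was at 0 and 0.07 TPM in exercise libraries, against 14.9 and 11.7 TPM in control libraries. The Y-linked gene Eif2s3y was at 16.7 and 25.2 TPM in exercise libraries, against 0.30 and 0 TPM in control libraries. Another Y-linked gene, Ddx3y, was at 41.2 and 37.6 TPM in exercise libraries, against 10.04 and 12.1 TPM in control libraries. Uty and Kdm5d, also Y-linked, were at 11.6 and 11.1 TPM and at 7.45 and 8.50 TPM in exercise libraries. In control libraries they were at 3.75 and 4.03 TPM and at 1.81 and 2.67 TPM. Xist and Eif2s3y in the control libraries thus go against the male sex named in the methods. Ddx3y, Uty and Kdm5d were nevertheless present there, at lower values than in exercise libraries, so the pattern was mixed. Exercise cannot be told apart from these sex-linked differences in any comparison here.

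The differences below are those of log2(TPM + 1), exercise minus control, from a limma fit to the 13288 genes that reached 1 TPM in 2 libraries or more. A gene was called where the Benjamini-Hochberg adjusted p over all these genes was under 0.05. By this test 5 of the 7 tested adipocyte markers were called lower and 1 higher, with a median difference of -3.08. Of the 12 muscle fiber markers 6 were called lower and 1 higher, with a median of -0.65. Of all tested genes 6.19% were called lower and 55.3% higher. Of the 60 members 56 passed the filter, and each of the 56 had at least 1 TPM in all 4 libraries. The rest were Cox7b2 and Cox8c, testis forms listed at 0 in every library, Cox5b-ps with 0.36 TPM in 1 control library, and a second row of Atp5po with 0.47 TPM in 1 control library.

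In TPM as deposited, few of these genes were called in either direction, although most tested genes of the transcriptome were called higher in exercise muscle. Of the 56 tested members 11 were called higher, whereas 55.3% of all tested genes were. A single member, Sdhb, was called lower, against 6.19% of all tested genes. The median difference was 0.19 over the members and 0.53 over all tested genes, and 51 of the 56 members lay below that all-gene median. In 33 members both exercise libraries lay above both control libraries, a pattern seen in 72.8% of all tested genes, and in 8 both lay below, against 10.5% of all tested genes. Summed over the 60 members, TPM was 28815 and 31755 in exercise libraries, against 29224 and 26810 in control libraries, so that the groups overlapped.

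Of the 11 members called higher 9 were assembly factors. These were 9 of 19 assembly factors (47.4%), against 55.3% of all tested genes, with a median difference of 0.36 and none lower as deposited, but the median-of-ratios scaling described below left none of them called higher. Of the 36 tested subunits 1 was called higher (Atp5f1d) and 1 lower (Sdhb), with a median of 0.11, and all 36 lay below the all-gene median. Assembly factors made up 5.54 and 5.70 TPM for every 100 TPM of subunits in exercise libraries, against 4.34 and 4.91 TPM in control libraries. The 2 classes also differ in level, since subunits had a median mean TPM of 605 and assembly factors of 27.8. Among tested genes averaging 100 TPM or more, 49.6% were called higher and 12.7% lower. In that range lay 34 subunits, of which 1 was called higher and 1 lower, and 3 assembly factors, of which 2 were called higher. Between 10 and 100 TPM, 5 of 10 assembly factors were called higher, against 62.5% of all tested genes. Below 10 TPM, 2 of 6 assembly factors were, against 50.5% of all tested genes. As deposited, the share of assembly factors called higher was thus near that of all genes, and the subunits were the members with few calls. The difference between the 2 classes was not tested.

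**Figure D1:**
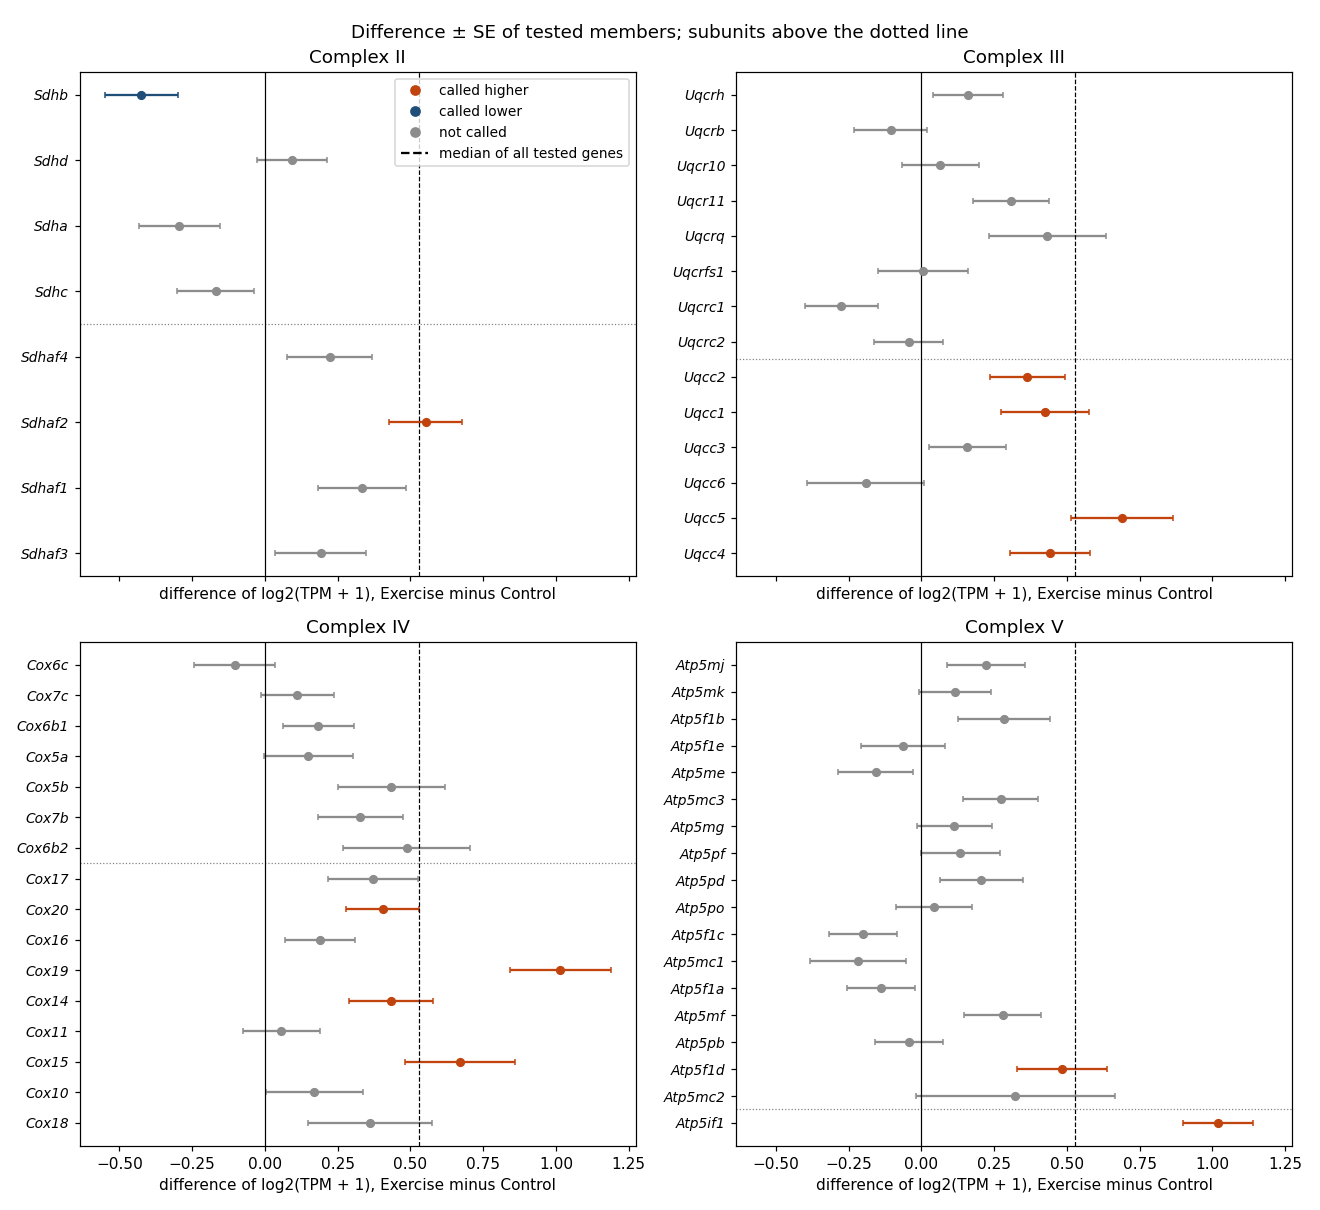
Difference of log2(TPM + 1), exercise minus control, for the 56 tested members by complex, with bars for the standard error. Red points were called higher, the blue point (Sdhb) lower and grey points were not called. The dashed line is the all-gene median of 0.53, which all 36 subunits lie below.

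The calls depended on the scaling of the libraries. Median-of-ratios scaling, which sets the typical gene to no change, lowered exercise relative to control by 0.62 on the log2 scale and brought the all-gene median to 0.02. After it, 10.9% of all tested genes were called higher and 16.2% lower. Of the members 1 was then called higher (Atp5if1) and 28 were called lower, with a median of -0.42. Those 28 were 23 of the 36 subunits and 5 of the 19 assembly factors. Among tested genes averaging 100 TPM or more, 38.6% were called lower after this scaling, against 67.6% of the 34 subunits in that range. Relative to the all-gene median, the medians of the complexes as deposited were -0.39 for complex II, -0.37 for complex III, -0.19 for complex IV and -0.40 for complex V.

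**Figure D2:**
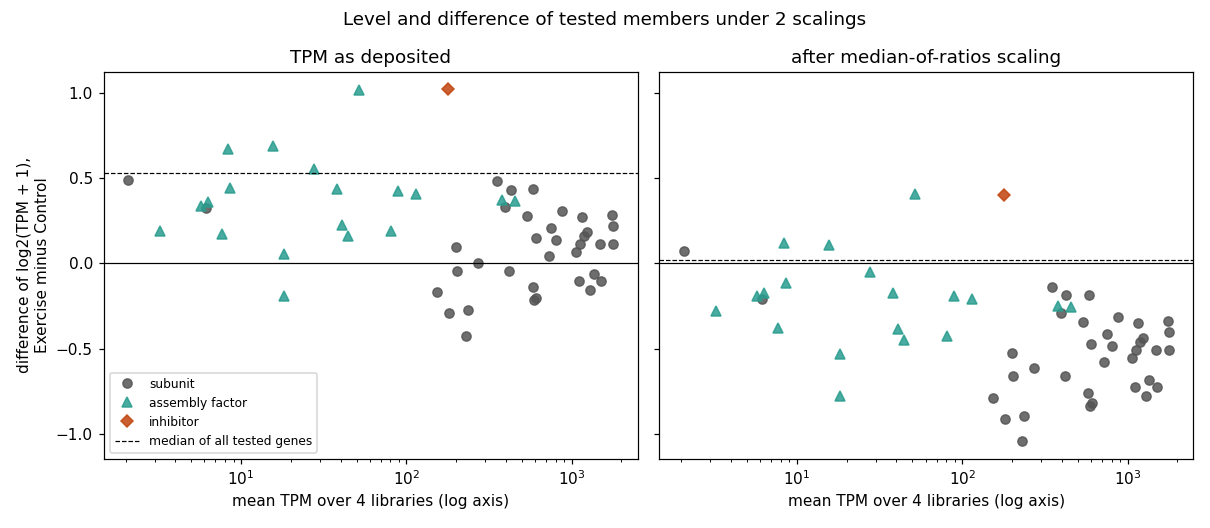
Mean TPM over the 4 libraries (log axis) against the difference of log2(TPM + 1), exercise minus control, for 36 subunits, 19 assembly factors and the inhibitor. On the left, values as deposited lie mostly above 0 and below the dashed all-gene median. On the right, after median-of-ratios scaling, 35 of the 36 subunits lie below 0.

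The subunits of complex II had the lowest median difference of the 4 complexes, -0.23. They summed to 686 and 735 TPM in exercise libraries, against 820 and 822 TPM in control libraries, a log2 ratio of means of -0.21, and these groups did not overlap. Sdhb, the iron-sulfur subunit, had 188 and 204 TPM in exercise libraries, against 277 and 249.9 TPM in control libraries. It fell by 0.42 on the log2 scale (SE 0.13, limma adjusted p = 0.0256), to 74.4% of the control mean. Sdhb was the only member called lower as deposited, and it was also called lower after median-of-ratios scaling (-1.04, adjusted p = 0.00893). That call as deposited was lost without Control 1, without Exercise 1 and without Exercise 2. It was also lost without the filter on low values (limma adjusted p = 0.0644) and where a ratio of means over 1.5 in either direction was required. Sdha, the flavin subunit that oxidizes succinate, had 163 and 162 TPM in exercise libraries, against 181 and 220.1 TPM in control libraries, and was not called (-0.29, SE 0.14, adjusted p = 0.104). The 2 membrane anchors of the complex, which form the ubiquinone site, were not called either. Sdhd had 199 and 215 TPM in exercise libraries, against 189.8 and 198 TPM in control libraries (0.09, SE 0.12, adjusted p = 0.514), and Sdhc had a difference of -0.17. All 4 subunits were called lower after median-of-ratios scaling, against 38.6% of all tested genes averaging 100 TPM or more.

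The promoter of Sdhb is shown because it is the member called lower and holds a core of NRF1, a transcription factor known for nuclear genes of mitochondrial proteins. The sequence is RefSeq's for GRCm38.p6, chr4:140961021-140961320 on the plus strand, from 250 bases before the start of the gene to 50 after it. Capitals mark the reverse complement of GCGCATGC, whose first base lies at -54 from the start.
Sdhb: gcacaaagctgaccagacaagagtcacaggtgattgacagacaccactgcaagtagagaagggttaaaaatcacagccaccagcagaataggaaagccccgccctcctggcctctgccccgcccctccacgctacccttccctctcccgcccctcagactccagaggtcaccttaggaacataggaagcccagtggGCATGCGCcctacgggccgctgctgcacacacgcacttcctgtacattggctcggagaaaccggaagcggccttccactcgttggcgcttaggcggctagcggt

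The 4 assembly factors of complex II summed to 82.0 and 92.3 TPM in exercise libraries, against 64.2 and 71.1 TPM in control libraries. Sdhaf2, which helps attach flavin to Sdha, had 32.1 and 34.3 TPM in exercise libraries, against 22.0 and 22.6 TPM in control libraries, and was called higher (0.55, SE 0.13, adjusted p = 0.0107), though its difference after median-of-ratios scaling was -0.05. The other factors were not called. The exercise libraries lay above the control libraries in each, as in 72.8% of all tested genes. After median-of-ratios scaling the differences of all 4 assembly factors were negative. Sdhaf1, which serves iron-sulfur insertion into Sdhb, had 6.26 and 6.66 TPM in exercise libraries, against 4.56 and 5.30 TPM in control libraries (0.33, SE 0.15, adjusted p = 0.0969). Sdhaf3, which acts on the same subunit, had 3.44 and 3.56 TPM in exercise libraries, against 2.73 and 3.16 TPM in control libraries (0.19, SE 0.16, adjusted p = 0.314). Sdhaf4, which binds flavin-loaded Sdha, had 40.2 and 47.7 TPM in exercise libraries, against 35.0 and 40.0 TPM in control libraries (0.22, SE 0.15, adjusted p = 0.222), and it was called lower after median-of-ratios scaling (-0.39).

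In complex III none of the 8 subunits was called, and 4 of the 6 assembly factors were called higher, beside 55.3% of all tested genes. The subunits summed to 5268 and 5814 TPM in exercise libraries, against 5408 and 4955 TPM in control libraries, and the groups overlapped. Uqcrh, the hinge protein at cytochrome c1, was the most abundant, with 1226 and 1271 TPM in exercise libraries, against 1132 and 1102 TPM in control libraries (0.16, SE 0.12, adjusted p = 0.273). Uqcrb, a small matrix-side subunit, had 1029 and 1096 TPM in exercise libraries, against 1188 and 1099 TPM in control libraries (-0.11, SE 0.12, adjusted p = 0.478). The subunits differed among themselves, with differences from -0.27 to 0.43. The lowest was that of Uqcrc1, a core protein, with 202 and 223 TPM in exercise libraries, against 268 and 247 TPM in control libraries (-0.27, SE 0.12, adjusted p = 0.0962). The highest was that of Uqcrq, another small subunit, with 432 and 546 TPM in exercise libraries, against 426 and 304 TPM in control libraries (0.43, SE 0.20, adjusted p = 0.101). Uqcr11, which is also a small subunit, had 907 and 1032 TPM in exercise libraries, against 810.2 and 753 TPM in control libraries (0.31, SE 0.13, adjusted p = 0.0797). The remaining subunits, the Rieske iron-sulfur protein Uqcrfs1, the core protein Uqcrc2 and Uqcr10, had overlapping groups and differences of 0.00, -0.04 and 0.06. After median-of-ratios scaling 6 of the 8 subunits were called lower, against 38.6% of all tested genes averaging 100 TPM or more.

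The assembly factors of complex III, which act on cytochrome b and on early intermediates, summed to 676 and 743 TPM in exercise libraries, against 573 and 537 TPM in control libraries. Uqcc5 (Smim4 in RefSeq) had 22.6 and 16.6 TPM in exercise libraries, against 11.5 and 11.7 TPM in control libraries, and rose by 0.69 (SE 0.17, adjusted p = 0.0154). Uqcc4 had 10.1 and 9.99 TPM in exercise libraries, against 7.06 and 7.17 TPM in control libraries (0.44, SE 0.14, adjusted p = 0.0293). The groups were far apart beside their spread in Uqcc4, whereas the exercise libraries of Uqcc5 differed by more than the gap between the groups. Uqcc1 had 96.1 and 107 TPM in exercise libraries, against 67.7 and 84.2 TPM in control libraries (0.42, SE 0.15, adjusted p = 0.0470). Uqcc2, its partner in cytochrome b synthesis, was the most abundant assembly factor, with 489 and 539.7 TPM in exercise libraries, against 422 and 376 TPM in control libraries (0.36, SE 0.13, adjusted p = 0.0471). Uqcc3 had a difference of 0.16 and was not called. Uqcc6 was the only one of the 19 assembly factors among the members with a negative difference, with 13.7 and 20.4 TPM in exercise libraries, against 20.3 and 18.2 TPM in control libraries (-0.19, SE 0.20, adjusted p = 0.428). Under median-of-ratios scaling not 1 of the 6 was called higher, against 10.9% of all tested genes. Uqcc3 and Uqcc6 were called lower, against 16.2% of all tested genes.

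In complex IV none of the 7 tested subunits and 4 of the 9 assembly factors were called higher, beside 55.3% of all tested genes, and none was called lower. The subunits here exclude the isoform genes set apart above. They summed to 5759 and 6374 TPM in exercise libraries, against 5776 and 5377 TPM in control libraries. Cox6c had 1347 and 1571 TPM in exercise libraries, against 1637 and 1493 TPM in control libraries (-0.10, SE 0.14, adjusted p = 0.533), the only negative difference among them. Cox7c had 1482 and 1617 TPM in exercise libraries, against 1447 and 1419 TPM in control libraries (0.11, SE 0.12, adjusted p = 0.458). These 2 were the most abundant, and their differences were within 1 SE of 0. Cox5b, a matrix-side subunit, had 589 and 748 TPM in exercise libraries, against 562 and 429 TPM in control libraries (0.43, SE 0.18, adjusted p = 0.0798). Cox7b had 401 and 485 TPM in exercise libraries, against 373 and 331 TPM in control libraries (0.33, SE 0.15, adjusted p = 0.0900). Cox6b2, known as the testis form of Cox6b1, was barely present, with 1.94 and 3.27 TPM in exercise libraries, against 1.44 and 1.62 TPM in control libraries (0.49, SE 0.22, adjusted p = 0.0930). Its general partner Cox6b1 had a mean of 1233 TPM over the 4 libraries and a difference of 0.18, and Cox5a had a difference of 0.15. Of the 7 tested subunits Cox6b1, Cox6c and Cox7c were called lower after median-of-ratios scaling. Of all tested genes averaging 100 TPM or more 38.6% were.

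The assembly factors of complex IV deliver its heme and copper and insert its mitochondrially encoded core subunits. They summed to 743 and 865 TPM in exercise libraries, against 574 and 640.3 TPM in control libraries. Every one had a positive difference as deposited, as did 11040 of all 13288 tested genes. After median-of-ratios scaling 7 of the 9 differences were negative. Cox19, which is needed for copper delivery, had 62.5 and 77.3 TPM in exercise libraries, against 30.0 and 38.2 TPM in control libraries. It rose by 1.02 (SE 0.17, adjusted p = 0.00471), to 205% of the control mean, and under median-of-ratios scaling it was no longer called (0.41, adjusted p = 0.0663, the highest of its alternatives, which began at 0.00531). Cox15, the heme A synthase, had 8.72 and 12.4 TPM in exercise libraries, against 5.90 and 6.45 TPM in control libraries (0.67, SE 0.19, adjusted p = 0.0222). The exercise libraries of Cox15 differed from each other by more than the lower of them did from the higher control library. Cox20, a chaperone of the newly made mitochondrial subunit of the copper site, had 122 and 139 TPM in exercise libraries, against 98.7 and 98.0 TPM in control libraries (0.41, SE 0.13, adjusted p = 0.0297). Cox14, which acts on early intermediates, had 40.1 and 47.7 TPM in exercise libraries, against 34.1 and 30.3 TPM in control libraries, and was also called higher (0.43, SE 0.15, adjusted p = 0.0384).

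The other 5 assembly factors of complex IV among the members were not called. Cox17, the copper donor, was the most abundant assembly factor of complex IV, with 389 and 468 TPM in exercise libraries, against 301 and 361 TPM in control libraries (0.37, SE 0.15, adjusted p = 0.0747). Cox11, which places copper in the oxidase core, had the lowest difference of the 9, with 17.7 and 19.4 TPM in exercise libraries, against 17.9 and 17.7 TPM in control libraries (0.06, SE 0.13, adjusted p = 0.720). The copper factors Cox19, Cox17 and Cox11 thus included the highest and the lowest difference of the list. Cox10, which makes heme O for Cox15 to convert, had a difference of 0.17, and Cox16 and Cox18 had differences of 0.19 and 0.36. Under median-of-ratios scaling not 1 of the 9 was called higher, against 10.9% of all tested genes. Cox11 and Cox16 were called lower, against 16.2% of all tested genes.

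The promoters of Cox19 and Cox15 are shown as those of the 2 complex IV assembly factors with the largest differences among the members. Cox19 lies at chr5:139345117-139345416 on the minus strand and Cox15 at chr19:43752951-43753250 on the minus strand, both RefSeq and GRCm38.p6 over the same window. Capitals mark CCGGAAGT, the core bound by ETS factors such as GABPA, which starts 8 bases into the transcript in Cox15. None of the motifs searched was in the window of Cox19.
Cox19: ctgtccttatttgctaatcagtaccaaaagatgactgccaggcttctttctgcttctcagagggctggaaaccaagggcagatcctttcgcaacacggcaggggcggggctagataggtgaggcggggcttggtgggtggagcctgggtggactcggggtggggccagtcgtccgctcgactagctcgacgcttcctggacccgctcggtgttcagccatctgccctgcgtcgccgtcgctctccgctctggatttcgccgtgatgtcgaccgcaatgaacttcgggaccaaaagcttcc
Cox15: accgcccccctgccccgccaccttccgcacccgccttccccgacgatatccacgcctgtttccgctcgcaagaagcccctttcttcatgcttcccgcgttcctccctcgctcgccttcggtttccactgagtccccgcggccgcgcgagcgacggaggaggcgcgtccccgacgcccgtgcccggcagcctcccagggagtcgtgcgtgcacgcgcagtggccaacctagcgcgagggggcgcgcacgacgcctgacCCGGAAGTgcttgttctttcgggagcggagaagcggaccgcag

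**Figure D3:**
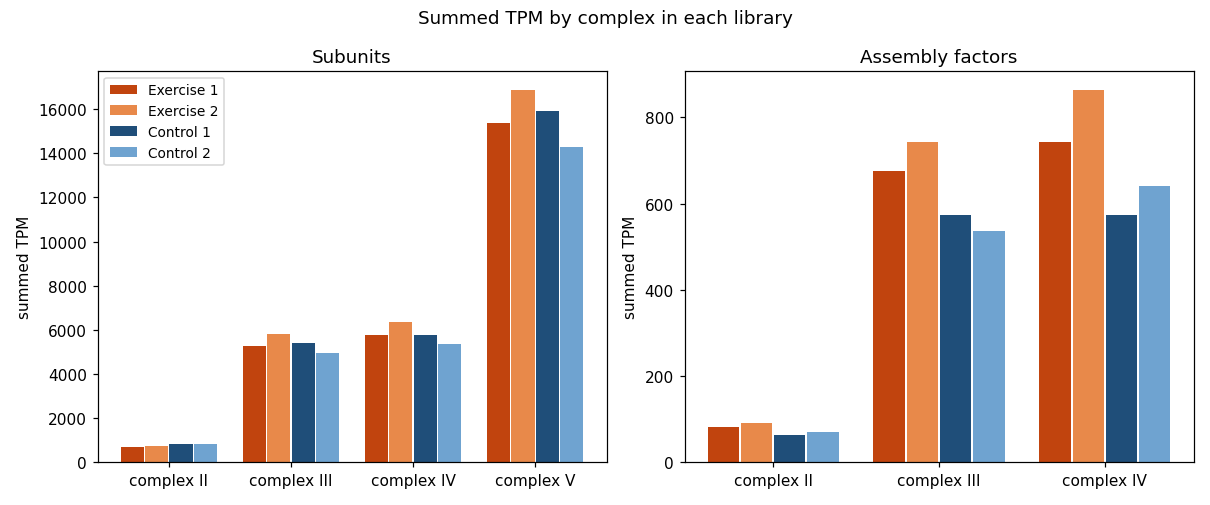
Summed TPM of the subunits (left) and the assembly factors (right) of each complex, 1 bar for each library with the exercise libraries in orange and the control libraries in blue. Complex V subunits took 14284 to 16891 TPM. For the assembly factors of complexes II, III and IV both exercise bars stand above both control bars. Both exercise libraries also lay above both control libraries in 72.8% of all tested genes. After median-of-ratios scaling 16 of the 19 assembly factors had negative differences.

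Complex V was the most abundant, and the sums of its subunits overlapped between the groups. They were 15362 and 16891 TPM in exercise libraries, against 15895 and 14284 TPM in control libraries. The 2 members called, of 18 tested, were the inhibitor and 1 small subunit of the central stalk, both higher. Among all tested genes 55.3% were called higher and 6.19% lower. Atp5if1, the inhibitory factor that limits ATP hydrolysis when the enzyme runs in reverse, had 239 and 241 TPM in exercise libraries, against 113 and 124 TPM in control libraries. It rose by 1.02 (SE 0.12, adjusted p = 0.00285), to 203% of the control mean, and remained called after median-of-ratios scaling (0.40, adjusted p = 0.0279). Over all alternatives its adjusted p ran from 0.00323 to 0.0362. The 2 exercise libraries of Atp5if1 differed by less than the 2 control libraries, and the gap between the groups was many times either spread. No subunit of the enzyme it acts on had a difference above 0.48.

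The F1 head and its central stalk were split by subunit. Atp5f1d, the delta subunit of the stalk, had 378 and 439 TPM in exercise libraries, against 325 and 262 TPM in control libraries, and was called higher (0.48, SE 0.15, adjusted p = 0.0337), with a difference of -0.14 after median-of-ratios scaling. The catalytic beta subunit Atp5f1b had 1768 and 2066 TPM in exercise libraries, against 1734 and 1420.2 TPM in control libraries, and was not called (0.28, SE 0.16). The alpha subunit Atp5f1a had 542 and 562 TPM in exercise libraries, against 605 and 609.6 TPM in control libraries, and was not called (-0.14, SE 0.12). Alpha and beta stand in equal number in the enzyme. After median-of-ratios scaling both differences were negative, -0.34 for Atp5f1b and -0.76 for Atp5f1a. The gamma subunit Atp5f1c had 559 and 569.5 TPM in exercise libraries, against 645 and 652 TPM in control libraries (-0.20, SE 0.12), again without overlap and without a call, and Atp5f1e had a difference of -0.06. The peripheral stalk, which holds the head still, had differences of -0.04 for Atp5pb, 0.20 for Atp5pd, 0.13 for Atp5pf and 0.04 for Atp5po, none called.

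The membrane part of complex V held its most abundant transcripts. Atp5mj had 1920.2 and 1923 TPM in exercise libraries, against 1774 and 1531 TPM in control libraries (0.22, SE 0.13, adjusted p = 0.188). Atp5mk had 1811 and 1901 TPM in exercise libraries, against 1766 and 1661 TPM in control libraries (0.12, SE 0.12, adjusted p = 0.440). Both are small accessory subunits of the membrane part, and neither was called. Atp5mf had 549 and 633 TPM in exercise libraries, against 504 and 468 TPM in control libraries (0.28, SE 0.13, adjusted p = 0.105), while Atp5me and Atp5mg had differences of -0.16 and 0.11. After median-of-ratios scaling 10 of the 17 tested subunits of complex V were called lower, among them Atp5f1a, Atp5f1c and Atp5me. Of all tested genes averaging 100 TPM or more 38.6% were.

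The c-ring, the rotor that protons turn, is encoded by Atp5mc1, Atp5mc2 and Atp5mc3, whose mature proteins are the same. Atp5mc1 had 509 and 584 TPM in exercise libraries, against 722 and 557 TPM in control libraries (-0.22, SE 0.16, adjusted p = 0.277). Atp5mc3 had 1204 and 1323 TPM in exercise libraries, against 1094 and 998 TPM in control libraries (0.27, SE 0.13, adjusted p = 0.106). Neither was called, and the groups of Atp5mc1 overlapped. Of the summed c-ring TPM, Atp5mc1 made up 29.6% and 30.5% in exercise libraries, against 39.6% and 35.8% in control libraries, and Atp5mc3 made up 70.1% and 69.0% in exercise libraries, against 60.0% and 64.0% in control libraries. The smallest two-sided p of an exact permutation test of 2 libraries against 2 is 0.333, so these shares were not tested further. Atp5mc2 was listed at only 4.70 and 9.16 TPM in exercise libraries, against 6.88 and 3.70 TPM in control libraries (0.32, SE 0.34, adjusted p = 0.433).

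**Figure D4:**
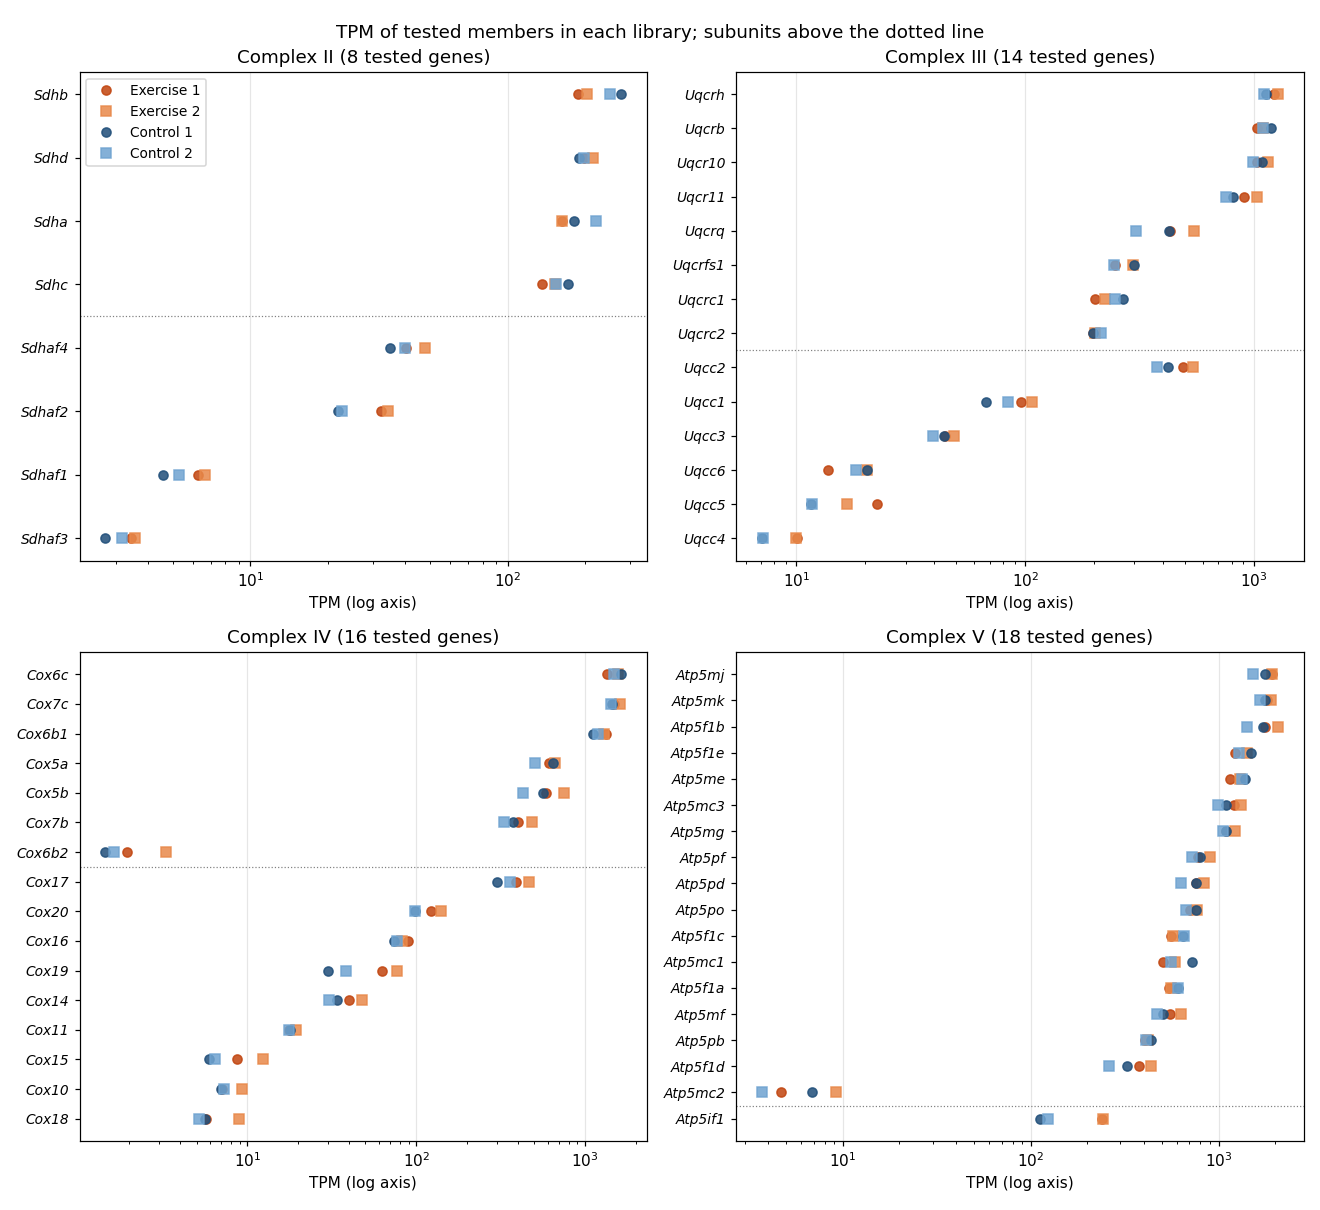
TPM (log axis) of the 56 tested members in each library, by complex, with exercise libraries in orange and control libraries in blue. Subunits stand above the dotted line and assembly factors or the inhibitor below it. In Cox19 and Atp5if1 the groups are well apart, whereas in most subunits the 4 points lie close together.

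Several members have near copies that could share their reads. The annotation of the table gives the protein name of a member to 52 other rows, 50 pseudogenes and 2 long noncoding RNAs, of which 16 were above 0 and 3 exceeded 100 TPM. The unnamed noncoding gene ENSMUSG00000121793, whose protein match is that of Atp5mc2, had 386 and 412 TPM in exercise libraries, against 383 and 429.8 TPM in control libraries, far above Atp5mc2 itself. The level of Atp5mc2 is therefore uncertain. So are the c-ring shares given above, those of Atp5mc1 and Atp5mc3 included, since their total leaves this noncoding gene out. Gm12338, a processed pseudogene of Cox7c, had 1291 and 1121 TPM in exercise libraries, against 1070.1 and 1189 TPM in control libraries. Gm10221, one of Atp5mg, had 413 and 383 TPM in exercise libraries, against 545 and 439.9 TPM in control libraries. Summed with their copies, the log2 ratio of means was 0.10 for Cox7c, -0.01 for Atp5mg and -0.02 for Atp5mc2.

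The libraries of 1 group also differed from each other across the members. In 51 of the 56 members Exercise 2 lay above Exercise 1, against 72.1% of all tested genes, and in 36 of the 56 Control 1 lay above Control 2, against 31.2% of all tested genes. When each library was left out in turn, Atp5if1 and Cox19 stayed called higher each time. Fewer members, and fewer of all tested genes, were called higher in each of these fits than with all 4 libraries. The call of Uqcc5 was lost without Exercise 1, that of Sdhaf2 without Exercise 1 or Exercise 2, and that of Cox15 without Control 1 or Exercise 2. Those of Atp5f1d and Cox14 were lost without Control 2, Exercise 1 or Exercise 2, and that of Uqcc1 without Control 1, Exercise 1 or Exercise 2. The calls of Uqcc2, Uqcc4 and Cox20 were lost in all 4 cases. Atp5if1 was called higher under every alternative that was run.

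Of 34 other genes known for complexes II to V, 33 were tested, of which 9 were called higher and 2 lower, against 55.3% and 6.19% of all tested genes, with a median difference of 0.17. After median-of-ratios scaling 1 was called higher and 13 lower, against 10.9% and 16.2% of all tested genes, with a median of -0.44. Sco1, a copper chaperone of complex IV, had 13.5 and 13.7 TPM in exercise libraries, against 6.22 and 6.69 TPM in control libraries (0.97, SE 0.14, adjusted p = 0.00332), and was also called higher after median-of-ratios scaling (0.41). Slirp, which stabilizes mitochondrial messenger RNAs, had 43.4 and 47.5 TPM in exercise libraries, against 24.5 and 25.9 TPM in control libraries (0.83, SE 0.13, adjusted p = 0.00382), and was no longer called after median-of-ratios scaling (0.22). The groups of both genes were far apart beside their spread. The 2 called lower, named after their values were seen, are both assembly factors of complex V. Atpaf1, the chaperone of the beta subunit, had 15.4 and 14.7 TPM in exercise libraries, against 26.4 and 25.5 TPM in control libraries (-0.75, SE 0.13, adjusted p = 0.00471). Fmc1, which is known in yeast for assembly of the F1 head, had 82.0 and 76.5 TPM in exercise libraries, against 105 and 114 TPM in control libraries (-0.46, SE 0.12, adjusted p = 0.0179). Both were also called lower after median-of-ratios scaling. Atpaf2, a further assembly factor of the F1 head, was called higher, with 26.6 and 23.7 TPM in exercise libraries, against 16.6 and 18.1 TPM in control libraries (0.51, SE 0.14, adjusted p = 0.0184), and its difference after that scaling was -0.08. The 2 most abundant were not called. Ndufa4, a subunit of complex IV despite its name, had 689 and 776 TPM in exercise libraries, against 763 and 661 TPM in control libraries (0.04, SE 0.14, adjusted p = 0.8), and Cyc1, the cytochrome c1 of complex III, had 183 and 217 TPM in exercise libraries, against 192 and 164 TPM in control libraries (0.17, SE 0.15, adjusted p = 0.343).

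The partner subunits made in the mitochondrion were not called as deposited. The 6 genes mt-Cytb, mt-Co1, mt-Co2, mt-Co3, mt-Atp6 and mt-Atp8 had differences from -0.38 to 0.03, with a median of -0.21, against a median of 0.11 for the nuclear subunits. Genes of the mitochondrial genome took 19.8% and 17.6% of the total in exercise libraries, against 24.1% and 21.0% in control libraries. After median-of-ratios scaling mt-Cytb, mt-Co1 and mt-Co2 were called lower, against 38.6% of all tested genes averaging 100 TPM or more.

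Promoter windows of the members were searched for motifs of factors known for nuclear genes of mitochondrial proteins. Of the 60 members 48 were matched in the RefSeq promoter table, and for 45 of these the RefSeq start lay within 250 bases of a protein-coding transcript start of GENCODE vM21. The exceptions were Sdhaf1, Atp5pb and Atp5if1, whose RefSeq start lay 1755 bases away, and its sequence is therefore not shown. Exact matches on either strand were counted, where GCGCATGC overlaps its own reverse complement. The NRF1 core GCGCATGC was in 6 of the 48 (12.5%), against 3.05% of 27025 genes in the table. It was in the windows of Sdhb, Uqcr11, Uqcrc1, Atp5mc2, Atp5me and Atp5mg. The ETS core CCGGAAGT was in 7 members (14.6%), Cox14 and Cox15 among them, against 4.31% of the genes. The estrogen-related receptor (ERR) core AAGGTCA was in 7 members (14.6%), against 5.38% of the genes. These 7 include Atp5if1, whose window lies at the distant RefSeq start given above. The YY1 core AAGATGGCG was in 3 (6.25%), against 1.64% of the genes. These shares are a description and were not tested.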

How the data were processed

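RNA-seq of mouse TA muscle was analysed in 2 exercise and 2 control libraries, with groups taken from the sample titles. The authors deposited 1 table of TPM for 57180 genes, made per the submitters' processing notes with fastp, HISAT2 and StringTie on GRCm39 (versions not given in the sources used here). The labels name the Illumina Stranded mRNA Prep kit, and the methods name the NEBNext Ultra kit. TPM keeps no depth, so the precision is that of the libraries.

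Genes with 1 TPM or more in 2 libraries or more, whatever their group, entered the fit (13288 genes). The fit was made to log2(TPM + 1) in limma 3.58.1 (R 4.3.3), using eBayes with its trend option, all libraries together and no covariate. P-values were adjusted by Benjamini-Hochberg over all tested genes, with 0.05 as the threshold. Median-of-ratios factors were 1.19 and 1.31 for exercise libraries and 0.783 and 0.838 for control libraries. The script was tested on simulated data. Promoters are RefSeq's (GRCm38.p6), matched through the Entrez identifiers of GENCODE vM21, and motifs were searched as exact letters. Tables and figures were made with Python 3.11.15, pandas 2.3.3, numpy 2.4.6 and matplotlib 3.10.9.

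The members and lists were chosen with earlier results of these data known. Full values are given, in the subunits and the assembly factors of each complex, for the 2 most abundant members, the 2 of smallest p and those with the highest and lowest difference, for the member called lower, the c-ring genes and Atp5if1, and among the other genes of the complexes for the 2 of smallest p and the 2 most abundant. Values of further members were added after they were seen. The alternatives were 4 other scalings, a pseudocount of 0.1, no filter, no trend, a ratio of means over 1.5, leaving out single libraries, and a block for the replicate number.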

Additional observations from a re-analysis of the deposited data

How the results depend on the processing

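The direction of most differences depended on the scaling of the libraries. After median-of-ratios scaling, 1452 tested genes were called higher and 2152 lower (all-gene median 0.017), with 1 and 28 members (median -0.42). Higher and lower calls and the median were 0, 5 and -0.46 for complex II, 0, 8 and -0.46 for complex III, 0, 5 and -0.27 for complex IV, and 1, 10 and -0.50 for complex V. The difference became negative in 25 of the named genes, Sdhd -0.53, Atp5f1d -0.14, Uqcc1 -0.19, Cox7c -0.51, Atp5mc3 -0.35, Uqcr11 -0.31, Cox11 -0.53, Atp5mj -0.40, Cyc1 -0.45, Uqcc2 -0.26, Sdhaf2 -0.048, Sdhaf4 -0.39, Cox20 -0.21, Ndufa4 -0.58, Cox7b -0.29, Atp5mf -0.34, Sdhaf3 -0.28, Uqcrq -0.19, Cox17 -0.25, Cox5b -0.19, Atp5mc2 -0.21, Uqcrh -0.46, Uqcc4 -0.11, Atp5mk -0.51 and Sdhaf1 -0.19. After quantile normalization, 2178 tested genes were called higher and 1749 lower (all-gene median 0.080), with 2 and 12 members (median -0.18). Higher and lower calls and the median were 0, 3 and -0.25 for complex II, 0, 4 and -0.22 for complex III, 1, 1 and -0.032 for complex IV, and 1, 4 and -0.19 for complex V. The difference became negative in 17 of the named genes, Sdhd -0.23, Cox7c -0.044, Atp5mc3 -0.0017, Uqcr11 -0.11, Cox11 -0.46, Atp5mj -0.013, Cyc1 -0.18, Sdhaf4 -0.23, Ndufa4 -0.32, Cox7b -0.013, Atp5mf -0.054, Sdhaf3 -0.28, Atp5mc2 -0.20, Uqcrh -0.18, Uqcc4 -0.092, Atp5mk -0.17 and Sdhaf1 -0.19. With TPM rescaled without the 50 highest genes, 3432 tested genes were called higher and 1508 lower (all-gene median 0.22), with 2 and 14 members (median -0.21). Higher and lower calls and the median were 0, 4 and -0.24 for complex II, 0, 3 and -0.24 for complex III, 1, 2 and -0.052 for complex IV, and 1, 5 and -0.29 for complex V. The difference became negative in 17 of the named genes, Sdhd -0.31, Cox7c -0.29, Atp5mc3 -0.13, Uqcr11 -0.095, Cox11 -0.33, Cyc1 -0.23, Uqcc2 -0.038, Sdhaf4 -0.17, Ndufa4 -0.36, Cox7b -0.074, Atp5mf -0.12, Sdhaf3 -0.13, Cox17 -0.030, Atp5mc2 -0.024, Uqcrh -0.24, Atp5mk -0.29 and Sdhaf1 -0.0089.

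Rescaled without genes of the mitochondrial genome, 6994 tested genes were called higher and 958 lower, with 7 and 4 members. Complex II had 2 lower, complex III 2 higher and 1 lower, and complex V 1 higher and 1 lower. The complex IV median was 0.28, and Cox11 (-0.0094) and Ndufa4 (-0.027) became negative. A pseudocount of 0.1 gave an all-gene median of 0.63. With no filter beyond a value above 0 TPM in any library, 4513 genes were called higher and 456 lower (median 0.15), with 3 members higher (0 in complex III, 1 in complex IV and 1 in complex V) and 0 lower, in complex II too. Without the trend 7359 tested genes were called higher, 2 complex III members among them. With a ratio of means over 1.5 required as well, 6447 tested genes were called higher and 719 lower. Of the members 4 were then called higher (0, 1, 2 and 1 in complexes II to V) and 0 lower, in complex II too. 

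With each library left out in turn, the ranges were 2622 to 7039 all tested genes called higher, 410 to 814 all tested genes called lower, 3 to 8 members called higher, 0 to 1 members called lower, 0 to 1 complex II members called higher, 0 to 1 complex II members called lower, 0 to 2 complex III members called higher, 1 to 3 complex IV members called higher, 1 to 2 complex V members called higher and 0.21 to 0.48 for the median of complex IV. The difference changed sign in Atp5mc2 (-0.095 to 0.74), Cox11 (-0.0077 to 0.12), Cox6c (-0.21 to 0.0069), Ndufa4 (-0.06 to 0.14) and Uqcc6 (-0.46 to 0.080). Members called higher in all 4 of these fits were Atp5if1 and Cox19. The titles number the libraries 1 and 2 in each group, and same-numbered libraries did not deviate together (correlation -0.05), so they share only a number. With the number as a replicate block, 7400 genes were called higher and 830 lower, with 11 and 1 members, where Uqcc2 was lost (adjusted p = 0.0511) and Cox17 gained (adjusted p = 0.0247), so that complex III had 3 and complex IV 5 members called higher. TPM keeps no counts, so no count test or counting error could be given. With 2 libraries per group, an absent call does not show that a gene was unchanged, and a cause was not tested for any value that moved between settings. The planned comparison of protein sequences within the c-ring was not run.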
